A study of Mus musculus with 42 samples.

Results

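Glycolysis and hypoxia genes were followed in mouse skin wounds as a fixed list of 40 genes: the enzymes that split glucose to lactate, the carriers of glucose and lactate, the oxygen-sensing machinery and well-known genes switched on by low oxygen. The list was set by name and not by measured values, and 37 of the 40 genes had a probe set with their name among the 20672 probe sets of the array table. Gpi1, Eno1 and Bnip3l had no probe set under their names and were not analysed here. The measured members were 13 glycolytic enzymes, 3 regulators of glycolytic flux, 4 transporters, 6 HIF subunits and oxygen sensors, and 11 other hypoxia-inducible genes.

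The arrays came from skin around 6-mm splinted wounds of female diabetic db/db mice, which lack a working leptin receptor, 10 to 12 weeks old by the study's methods. Wounds received IL-22-Fc (the cytokine IL-22 fused to an antibody Fc part), VEGF or PDGF on the skin, or a control protein, and were taken at 24 h after 1 dose or on day 7 after doses on days 0, 2, 4 and 6. At 24 h there were 5 IL-22-Fc, 5 VEGF, 5 PDGF and 4 control arrays, on day 7 there were 5, 5, 3 and 5, and 5 further arrays held untreated skin at baseline, 42 arrays in 9 groups. The labels describe the control protein as antibody to ragweed, whereas the methods call it a control Fc. The VEGF dose is 20 ug in the labels and 50 ug in the methods, the PDGF dose is 50 ug, and the IL-22-Fc dose is 50 ug in the labels of the 24 h arrays and 20 ug in the design text. All wounded animals were diabetic, so no array of a wound in a healthy animal enters these comparisons. The labels give the strain as C57BL/6, whereas the methods list the db/db mice as a BKS.Cg line. The labels do not give the genotype of the untreated skin and do not say whether any arrays share an animal, so p-values measure the spread between these arrays.

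All values are log2 of the deposited probe-set intensities, and a difference of 1 is a 2-fold change. A gene was called changed at an adjusted p under 0.05 from limma, a linear model fitted over all 20672 probe sets with Benjamini-Hochberg adjustment. Arrays of a wound group correlated at 0.982 or more with each other over all probe sets, whereas pairs within untreated skin ranged from 0.941 to 0.993, with replicate 5 apart from the other 4. Where leaving it out ended a call against untreated skin or moved a called value over 1.5 times, the value without it is also given. Keratinocyte markers were high in all 42 arrays, with a summed intensity of at least 57443. Because the samples were bulk tissue, fewer cells of a type and less RNA per cell cannot be told apart.

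Glycolysis turns glucose into pyruvate with a small yield of ATP that does not need oxygen, and lactate dehydrogenase then turns pyruvate into lactate, which cells export. When oxygen is short, prolyl hydroxylases stop marking the alpha subunits of hypoxia-inducible factor (HIF) for destruction by the VHL complex, and HIF binds DNA with its partner ARNT and raises the transcription of glycolytic enzymes, transporters and its own hydroxylases. Skin wounds are poor in oxygen early on, and neutrophils, macrophages and migrating keratinocytes rely on glycolysis.

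The DNA core that HIF recognises, the hypoxia response element, was looked for as ACGTG or GCGTG on either strand in RefSeq promoter windows of 250 bases before to 50 bases after each gene's start (mouse GRCm38.p6). Slc2a3, Epas1 and Ndrg1 were not matched to a window. Of the 34 members with a window, 31 (91.2%) had at least 1 match, against 46.7% of all genes. By window, the share was 78.7% of 47 member windows and 43.8% of 32851 windows overall. A match is a description of letters and not a binding site. The list includes genes chosen as known low-oxygen responders, and the other genes were not matched to it for base content. The difference in shares was therefore not tested. Shown here, 100 bases each and 5′ to 3′ on the gene's strand, are stretches of 8 members whose changes are described below, with the matches of either strand in capitals; where 2 matches overlap or lie on both strands they form 1 longer run. Egln3 is at chr12:54204025-54204124 on the minus strand, Egln1 at chr8:124949295-124949394 on the minus strand, Aldoc at chr11:78322973-78323072 on the plus strand and Adm at chr7:110627547-110627646 on the plus strand. Slc16a3 is at chr11:120948967-120949066 on the plus strand, Ankrd37 at chr8:45999921-46000020 on the minus strand, P4ha2 at chr11:54100804-54100903 on the plus strand and Hif1a at chr12:73907717-73907816 on the plus strand. The stretches end 1 base before the start in Aldoc and Slc16a3, and 11 (Adm), 21 (P4ha2), 41 (Egln1), 51 (Hif1a), 71 (Ankrd37) and 151 bases (Egln3) before it in the others.
Egln3: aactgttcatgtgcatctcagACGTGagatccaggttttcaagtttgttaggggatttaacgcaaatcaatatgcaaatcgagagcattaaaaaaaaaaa
Egln1: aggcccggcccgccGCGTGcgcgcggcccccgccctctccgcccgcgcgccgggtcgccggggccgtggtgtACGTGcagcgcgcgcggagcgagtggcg
Aldoc: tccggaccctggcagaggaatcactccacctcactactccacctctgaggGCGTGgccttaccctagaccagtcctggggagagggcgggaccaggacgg
Adm: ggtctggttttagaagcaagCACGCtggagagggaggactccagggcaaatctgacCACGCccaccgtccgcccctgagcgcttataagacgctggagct
Slc16a3: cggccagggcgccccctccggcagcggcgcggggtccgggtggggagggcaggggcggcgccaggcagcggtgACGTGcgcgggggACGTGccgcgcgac
Ankrd37: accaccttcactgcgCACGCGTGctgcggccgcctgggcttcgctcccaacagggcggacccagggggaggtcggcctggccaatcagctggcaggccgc
P4ha2: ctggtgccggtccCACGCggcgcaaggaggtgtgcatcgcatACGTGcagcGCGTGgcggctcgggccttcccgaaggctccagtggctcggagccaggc
Hif1a: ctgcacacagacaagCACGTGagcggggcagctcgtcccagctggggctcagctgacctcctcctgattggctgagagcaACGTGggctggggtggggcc
Egln3 and Aldoc held 1 match in the stretch shown, Egln1, Adm, Slc16a3 and Ankrd37 held 2, and P4ha2 and Hif1a held 3.

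Most members, but not all, differed more between the 9 groups than the median probe set did. Ranked by F among all probe sets, Bnip3 (percentile 21.6), Arnt (36.7) and Hk1 (43.6) stood lowest of the members. With a moderated F test over the 9 group means, 36 of 37 members passed at an adjusted p under 0.05, against 69.5% of all probe sets, the exception being Bnip3, a mitophagy receptor (adjusted p = 0.155). The group means of a member spanned a median of 1.14 log2 units, and those of all probe sets 0.58. The members were not matched to all probe sets for intensity, here or in the shares given below. Egln3, the prolyl hydroxylase PHD3, had the widest span at 3.22, followed by P4ha2 (2.44), a collagen prolyl hydroxylase, the lactate exporter Slc16a3 (2.40) and Hif1a (2.24). Ldha, the lactate dehydrogenase subunit that favours lactate formation, had the narrowest span at 0.41. The group with a member's highest mean was most often IL-22-Fc on day 7 (11 members) and never VEGF or IL-22-Fc at 24 h or the control on day 7, while the lowest mean was most often that of untreated skin (15 members) or VEGF on day 7 (8).

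**Figure D1:**
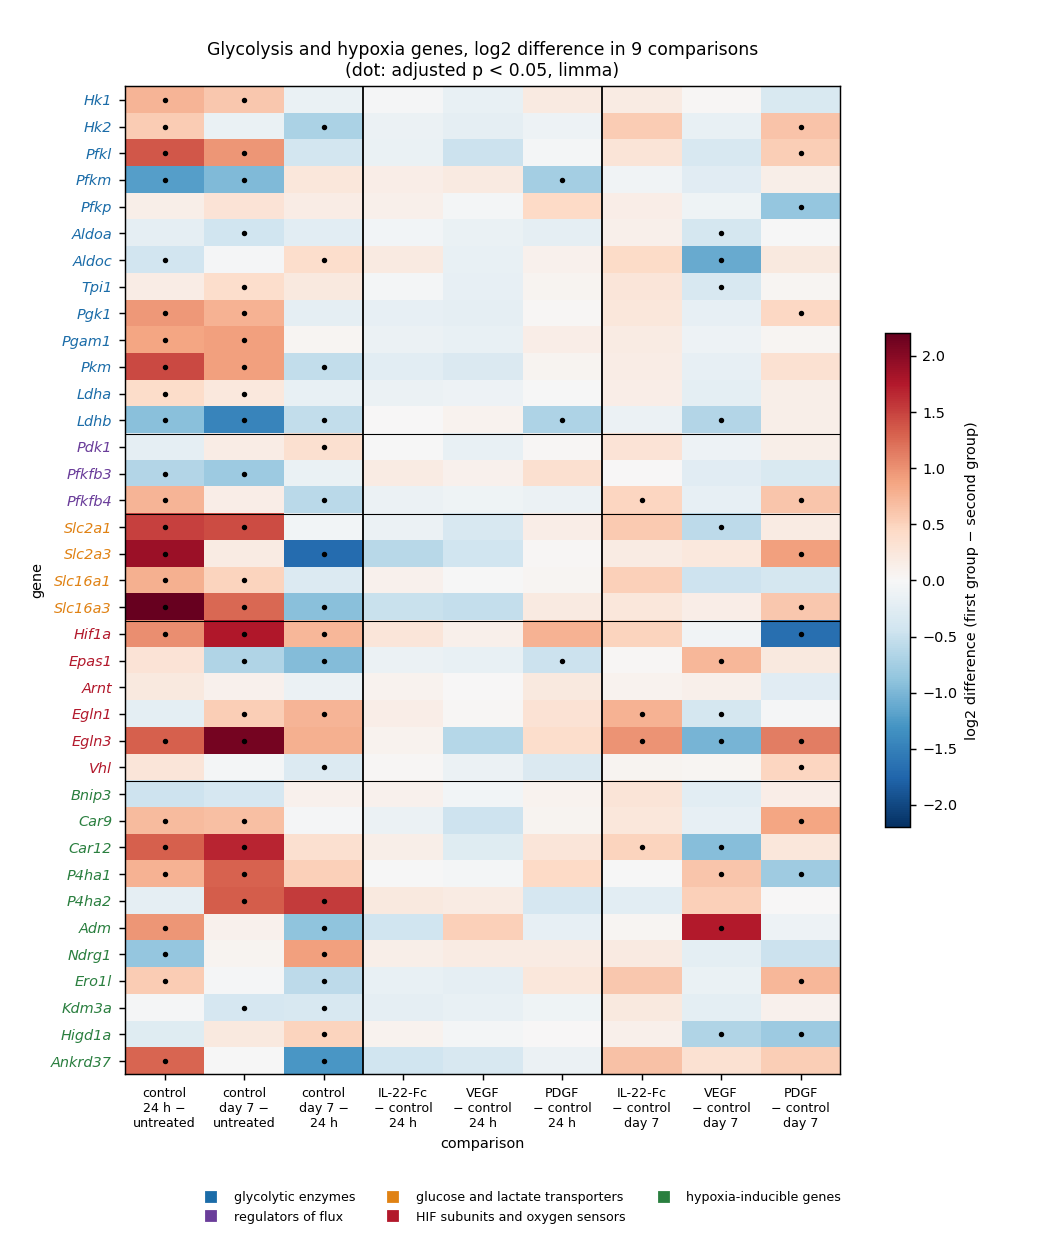
Log2 difference of each of the 37 members (rows, coloured by role) in the comparisons of control wounds with untreated skin and with each other and of each treatment with the control wounds of its time (columns), with a dot on called differences. The control wound columns and the day 7 treatment columns hold most of the dots, and the IL-22-Fc and VEGF columns at 24 h hold none.

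Control wounds differed from untreated skin in most of the members. The sample titles number the untreated arrays in a series apart from that of all wound arrays, and the genotype of untreated skin is not labelled. Wounding, sample series and genotype therefore cannot be told apart in the comparisons with untreated skin. In control wounds at 24 h, 20 of 37 members were higher and 5 lower than in untreated skin, where 39.5% of all probe sets were called in either direction (19.3% higher and 20.2% lower). The median member difference was 0.55, against 0.03 over all probe sets. On day 7 the counts against untreated skin were 17 higher and 6 lower, with 36.8% of all probe sets called (18.2% higher and 18.6% lower), and the median was 0.21 against 0.04. Control wounds and untreated skin did not overlap for 17 members at 24 h, 15 of them higher and 2 lower in the wounds (11.4% of all probe sets lay wholly higher and 10% wholly lower). On day 7 they did not overlap for 14 members, 12 higher and 2 lower (9.17% and 8.99% of all probe sets).

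The transporters were all called higher at 24 h. Slc16a3, the exporter MCT4 of highly glycolytic cells, read 4.70, 4.90, 5.20, 4.32 and 4.58 in untreated skin, 6.60, 6.83, 7.34 and 6.97 in control wounds at 24 h and 6.13, 5.87, 6.14, 5.80 and 6.10 on day 7. Every wound array stood above every array of untreated skin, and the day 7 arrays lay between the other groups. The difference from untreated skin was 2.19 (SE 0.24, 4.58-fold, limma adjusted p = 2.9e-09) at 24 h and 1.27 (SE 0.23, adjusted p = 2.3e-05) on day 7, and the difference of day 7 from 24 h was −0.93 (SE 0.24, adjusted p = 0.0028). Slc2a3, the high-affinity glucose transporter GLUT3, was high at the early time: 4.70, 4.33, 4.96, 4.59 and 4.30 in untreated skin, 6.42, 6.61, 6.41 and 6.42 at 24 h, and 4.96, 4.93, 4.49, 4.67 and 4.76 on day 7. Its difference from untreated skin was 1.89 (SE 0.28, adjusted p = 8.3e-07) at 24 h and 0.19 (adjusted p = 0.61) on day 7, and the difference of day 7 from 24 h was −1.70 (SE 0.28, adjusted p = 8e-06). Its probe set is of a kind that can also bind related transcripts, as are those of Aldoa and Pgk1. Slc2a1, the basal glucose transporter GLUT1, was higher at both times (2.82-fold at 24 h and 2.72-fold on day 7), and so was Slc16a1, the lactate carrier MCT1 (0.78 and 0.49). In untreated skin Slc16a3 and Slc2a3, like Car9 and P4ha1 below, read under the median probe set of those arrays (5.63 to 5.72). Their differences from untreated skin therefore start from a low level.

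**Figure D2:**
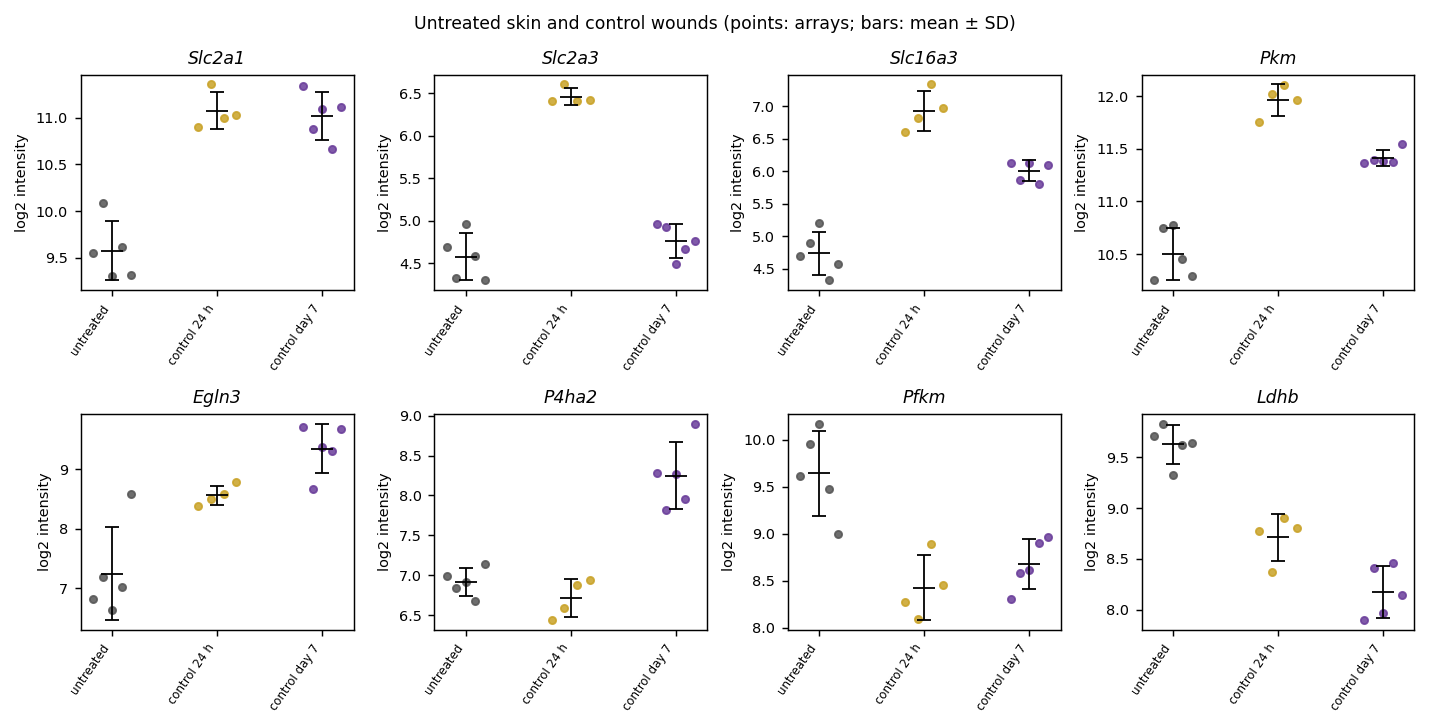
Log2 intensity of 8 members in untreated skin, control wounds at 24 h and control wounds on day 7, in that order; each point is 1 array and bars are the mean ± SD. Slc2a3 peaks at 24 h, P4ha2 and Egln3 are highest on day 7, and Ldhb is lower at each later time.

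Of the 13 glycolytic enzymes, 7 were called higher and 3 lower at each time after wounding. Pkm, pyruvate kinase, read 11.75 to 12.11 at 24 h, against 10.25 to 10.77 in untreated skin (1.46, SE 0.14, adjusted p = 7.2e-11), and Pfkl, the liver-type phosphofructokinase, was higher by 1.37 (SE 0.16). The kinase Pgk1 (0.96) and the mutase Pgam1 (0.87) of the later steps, the hexokinases Hk1 (0.74) and Hk2 (0.55), which trap glucose in the cell, and Ldha (0.41) rose as well, and on day 7 so did Tpi1 (0.38), the triose isomerase. The 3 that fell were the isoforms known from oxidative tissue or muscle and brain. Pfkm, the muscle phosphofructokinase, read 9.62, 9.95, 10.17, 9.48 and 9.00 in untreated skin, 8.27, 8.09, 8.89 and 8.46 at 24 h, and 8.31, 8.59, 8.62, 8.91 and 8.97 on day 7, so that all wound arrays were below all untreated arrays (−1.22, SE 0.18, adjusted p = 6.8e-07 at 24 h; −0.97, SE 0.17, adjusted p = 1.3e-05 on day 7). Ldhb, the lactate dehydrogenase subunit of oxidative tissue, was lower still on day 7: 9.72, 9.83, 9.32, 9.62 and 9.65 in untreated skin, 8.77, 8.37, 8.90 and 8.80 at 24 h and 7.90, 8.41, 7.96, 8.46 and 8.14 on day 7. Its difference from untreated skin was −0.92 (SE 0.14, adjusted p = 1.8e-06) at 24 h and −1.45 (SE 0.13, adjusted p = 3.7e-11) on day 7. Aldoc, the brain aldolase, fell by 0.42 at 24 h (adjusted p = 0.028), and Aldoa, the muscle-type aldolase, was the third lower enzyme on day 7 (−0.44, adjusted p = 0.0032).

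Among the regulators, Pfkfb4 rose (0.74) and Pfkfb3 fell (−0.65) at 24 h. Both make or break the sugar phosphate that activates phosphofructokinase. Pfkfb3 was also lower on day 7 (−0.80, adjusted p = 0.0073), whereas Pfkfb4 in day 7 control wounds was below its 24 h level (−0.59, SE 0.10, adjusted p = 2.7e-05). Pdk1, the kinase that shuts pyruvate dehydrogenase, was not called against untreated skin and was higher on day 7 than at 24 h by 0.36 (adjusted p = 0.031).

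Hif1a and the oxygen sensors Egln3 and Egln1 had their highest control means on day 7. Egln3 read 6.82, 7.18, 6.63, 7.01 and 8.58 in untreated skin, 8.38, 8.50, 8.57 and 8.78 at 24 h, and 9.70, 8.67, 9.37, 9.31 and 9.68 on day 7. Only the apart replicate 5 of untreated skin reached the level of the 24 h wounds. The day 7 difference was 2.10 (SE 0.30, 4.29-fold, adjusted p = 7e-07) with that array and 2.44 (adjusted p = 4.2e-09) without it, while day 7 and 24 h did not differ past the threshold (0.79, SE 0.32, adjusted p = 0.061). Hif1a read 6.71, 6.67, 6.55, 6.68 and 5.12 in untreated skin, 7.27, 8.60, 6.66 and 6.95 at 24 h, and 8.37, 8.15, 8.27, 7.96 and 7.75 on day 7. The day 7 wounds stood above all arrays of untreated skin, by 1.76 (SE 0.27, adjusted p = 1.9e-06) with replicate 5 and 1.45 (adjusted p = 6.6e-06) without it, while the 24 h wounds were spread widely (1.03, adjusted p = 0.0038 with and 0.72, adjusted p = 0.02 without). The 24 h value rested on control replicate 2, at 8.60, and was 0.62 (adjusted p = 0.061) when that array was left out. Epas1, a second HIF alpha subunit known from endothelial cells and macrophages, was lower on day 7: 10.54, 10.64, 10.51, 10.64 and 10.49 on day 7, against 11.54, 11.65, 11.37 and 11.55 at 24 h, a difference of −0.96 (SE 0.15, adjusted p = 2.8e-06). Egln1, the main oxygen-sensing hydroxylase PHD2, was higher on day 7 than at 24 h by 0.74 (SE 0.13, adjusted p = 4.6e-05).

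The hypoxia-inducible genes split by time. P4ha2 read 6.99, 6.84, 6.92, 6.67 and 7.14 in untreated skin, 6.44, 6.58, 6.88 and 6.94 at 24 h and 8.29, 7.82, 8.27, 7.95 and 8.90 on day 7. The day 7 arrays lay above all others, by 1.53 (SE 0.18, 2.9-fold, adjusted p = 1.3e-08) relative to 24 h. Ankrd37, an ankyrin-repeat gene known as a HIF target, read 5.20, 5.08, 5.62, 5.34 and 5.56 in untreated skin, 6.39, 6.48, 7.27 and 6.42 at 24 h and 5.21, 4.31, 5.54, 5.16 and 6.55 on day 7. It was called higher at 24 h (1.28, SE 0.31, adjusted p = 0.0011) and lower on day 7 than at 24 h (−1.29, SE 0.31, adjusted p = 0.0014), although 1 day 7 array reached the 24 h level. Adm, the vasodilator peptide adrenomedullin, was also higher at 24 h than in untreated skin (0.98) and lower on day 7 than at 24 h (−0.88). Car12 and Car9, carbonic anhydrases that keep cell pH up, were higher at both times (Car12 by 1.32 and 1.67, Car9 by 0.69 and 0.66), as was P4ha1 (0.77 and 1.29). Kdm3a, a histone demethylase, was lower on day 7 than in untreated skin (−0.37, adjusted p = 0.014) and than at 24 h (−0.35, adjusted p = 0.037). Ndrg1, a stress and differentiation gene, fell by 0.85 at 24 h and was higher on day 7 than at 24 h by 0.91 (SE 0.24, adjusted p = 0.0027), with arrays of 9.33, 8.21, 9.27, 8.70 and 9.18 on day 7 and 8.19, 8.05, 7.78 and 8.09 at 24 h.

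Between the control wounds themselves, 7 members were higher and 12 lower on day 7 than at 24 h, with 30.1% of all probe sets called (14.1% higher and 16% lower), and the count of 19 became 12 without control replicate 3 of 24 h. Without replicate 5 of untreated skin, 27 members were called at 24 h (24 of the 25 above among them) and 22 on day 7 (21 of the 23 above). Aldoc at 24 h (−0.34, adjusted p = 0.076), and Hk1 (0.32, adjusted p = 0.11) and Ldha (0.14, adjusted p = 0.18) on day 7, then missed the threshold, and Bnip3 passed it at both times (−0.78 and −0.69). Hk1 at 24 h (0.46, adjusted p = 0.023) and Tpi1 on day 7 (0.25, adjusted p = 0.037) kept their calls at smaller values. The lower Pfkfb3 at 24 h was then −0.94, the lower Ndrg1 at 24 h −1.10, the lower Epas1 on day 7 −0.87, and the higher Car12 1.55 at 24 h and 1.90 on day 7. Cell-type markers moved with these differences. At 24 h 11 of 12 neutrophil and 10 of 14 macrophage markers were higher and 12 of 15 muscle and 10 of 12 adipocyte markers lower than in untreated skin, and on day 7 14 of 14 macrophage, 8 of 12 neutrophil and 9 of 12 fibroblast markers were higher and 11 of 12 adipocyte and 11 of 15 muscle markers lower. The summed neutrophil signal was 29297 to 45765 in control wounds at 24 h and 15601 to 27850 on day 7, against 1287 to 2916 in untreated skin, and the summed muscle signal was 30054 to 46619 in control wounds at 24 h and 34591 to 47594 on day 7, against 35913 to 97200 in untreated skin. Their part in the member changes was not tested. The Gapdh control probe set, which reads the 5′ end of its transcript, was higher on day 7 than in untreated skin (0.51, limma adjusted p = 0.04). Untreated arrays read 11.14 to 12.92 and day 7 control wounds 12.82 to 12.99. At 24 h it was not called (0.18, adjusted p = 0.54), with control arrays from 12.21 to 13.27. The part of this probe set's shift in the differences from untreated skin was not tested.

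At 24 h the treatments were compared with the 4 control wounds of that time, and few members moved. With IL-22-Fc no member was called, where 0.111% of all probe sets were, and 2 members had an unadjusted p under 0.05, as did 7.01% of all probe sets (Slc2a3, −0.61, and Adm, −0.45, both with an adjusted p = 0.57). With VEGF no member was called either, where 0.135% of all probe sets were, and 7 of 37 had an unadjusted p under 0.05, as did 9.39% of all probe sets. The lowest adjusted p was 0.25, for Slc2a1, at 10.60, 10.72, 10.67, 10.80 and 10.82 in VEGF wounds, against 10.90 to 11.36 in control wounds (−0.35, SE 0.10). All 5 VEGF arrays lay below all 4 control arrays for Slc2a1 and also for Pfkl, Pgk1, Slc2a3 and Egln3, 5 of 37 members, where 1.6% of all probe sets did so. Egln3 read 7.60, 7.95, 7.76, 7.96 and 8.34 with VEGF, against 8.38, 8.50, 8.57 and 8.78 in control wounds, and Slc2a3 read 5.76, 6.15, 6.01, 6.03 and 6.18 with VEGF, against 6.42, 6.61, 6.41 and 6.42 in control wounds. None of the 5 passed the adjusted threshold.

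With PDGF at 24 h, 3 members were lower and none higher, where 1.89% of all probe sets were called (0.489% higher and 1.4% lower). Pfkm read 7.45, 7.98, 7.73, 7.52 and 7.70 with PDGF, against 8.27, 8.09, 8.89 and 8.46 in control wounds (−0.75, SE 0.16, adjusted p = 0.021). Ldhb read 8.38, 7.90, 8.04, 7.61 and 8.24 with PDGF, against 8.77, 8.37, 8.90 and 8.80 in control wounds, with the highest PDGF array just above the lowest control (−0.68, SE 0.14, adjusted p = 0.014). Epas1 read 11.16, 11.21, 11.08, 10.81 and 11.05 with PDGF, against 11.54, 11.65, 11.37 and 11.55 in control wounds (−0.46, SE 0.10, adjusted p = 0.016). Pfkm and Epas1 were the 2 members wholly below the controls, as were 3.85% of all probe sets. These calls depended on single control arrays: none was left without control replicate 4, 1 without control replicate 3, and 6 were made without control replicate 2, Hif1a (1.17) among them. In the same wounds 7 of 15 muscle markers were lower, with a summed signal of 16637 to 30060 in PDGF wounds, against 30054 to 46619 in control wounds; their part in the lower Pfkm and Ldhb was not tested.

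By day 7, after repeated doses, each treatment had called members, and all 3 treatments were set against the same 5 control arrays. With IL-22-Fc 4 members were higher and none lower, with 5.45% of all probe sets called (2.81% higher and 2.64% lower). The median member difference was 0.21, against −0.0031 over all probe sets, and 33 of 37 members were above 0, as were 49.2% of all probe sets. In 9 members every IL-22-Fc array lay above every control array, where 3.62% of all probe sets did so: Hk2, Tpi1, Ldha, Pfkfb4, Slc2a1, Slc16a1, Egln1, Egln3 and Ero1l.

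The called members were 2 oxygen sensors, 1 flux regulator and 1 carbonic anhydrase. Egln1 read 9.16, 9.71, 9.49, 9.62 and 9.48 in IL-22-Fc wounds, against 8.94, 8.78, 8.42, 8.84 and 8.65 in control wounds (0.77, SE 0.13, 1.7-fold, adjusted p = 0.00058). Pfkfb4 read 8.37, 8.33, 8.40, 8.39 and 8.46 with IL-22-Fc, against 7.79, 7.77, 8.09, 7.93 and 7.99 in control wounds (0.48, SE 0.08, adjusted p = 0.00081). Neither gene had a control array in the range of the IL-22-Fc wounds. Egln3 read 9.94, 10.55, 10.07, 10.58 and 10.50 with IL-22-Fc, against 9.70, 8.67, 9.37, 9.31 and 9.68 in control wounds (0.98, SE 0.26, 1.97-fold, adjusted p = 0.029), again without overlap, but 6 of the 10 fits that left out 1 array gave an adjusted p above the threshold, up to 0.075. Car12 read 8.54, 8.71, 8.71, 8.81 and 9.03 with IL-22-Fc, against 8.69, 8.24, 8.11, 8.30 and 7.98 in control wounds, with 1 control array inside the IL-22-Fc range (0.50, SE 0.13, adjusted p = 0.026). The Car12 call was lost in 5 of the 10 fits that left out 1 array. Just short of the threshold were Hk2 (0.56, adjusted p = 0.052), Slc16a1 (0.52, adjusted p = 0.059), Ero1l (0.58, adjusted p = 0.069), an oxidase of the endoplasmic reticulum, and Slc2a1 (0.57, adjusted p = 0.074). Leaving out control replicate 3 or 4, or IL-22-Fc replicate 4 or 5, left 2 called members, whereas array weights gave 9, with 6.86% of all probe sets called. Beside these values, 5 of 12 neutrophil markers were higher, with a summed signal of 48620 to 53046 with IL-22-Fc, against 15601 to 27850 in control wounds, and 3 of 16 keratinocyte markers were higher and 5 lower. Of 12 adipocyte markers 5 were lower and none higher, with a summed signal of 6435 to 9353 with IL-22-Fc, against 10421 to 13681 in control wounds. Their part in the member changes was not tested.

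**Figure D3:**
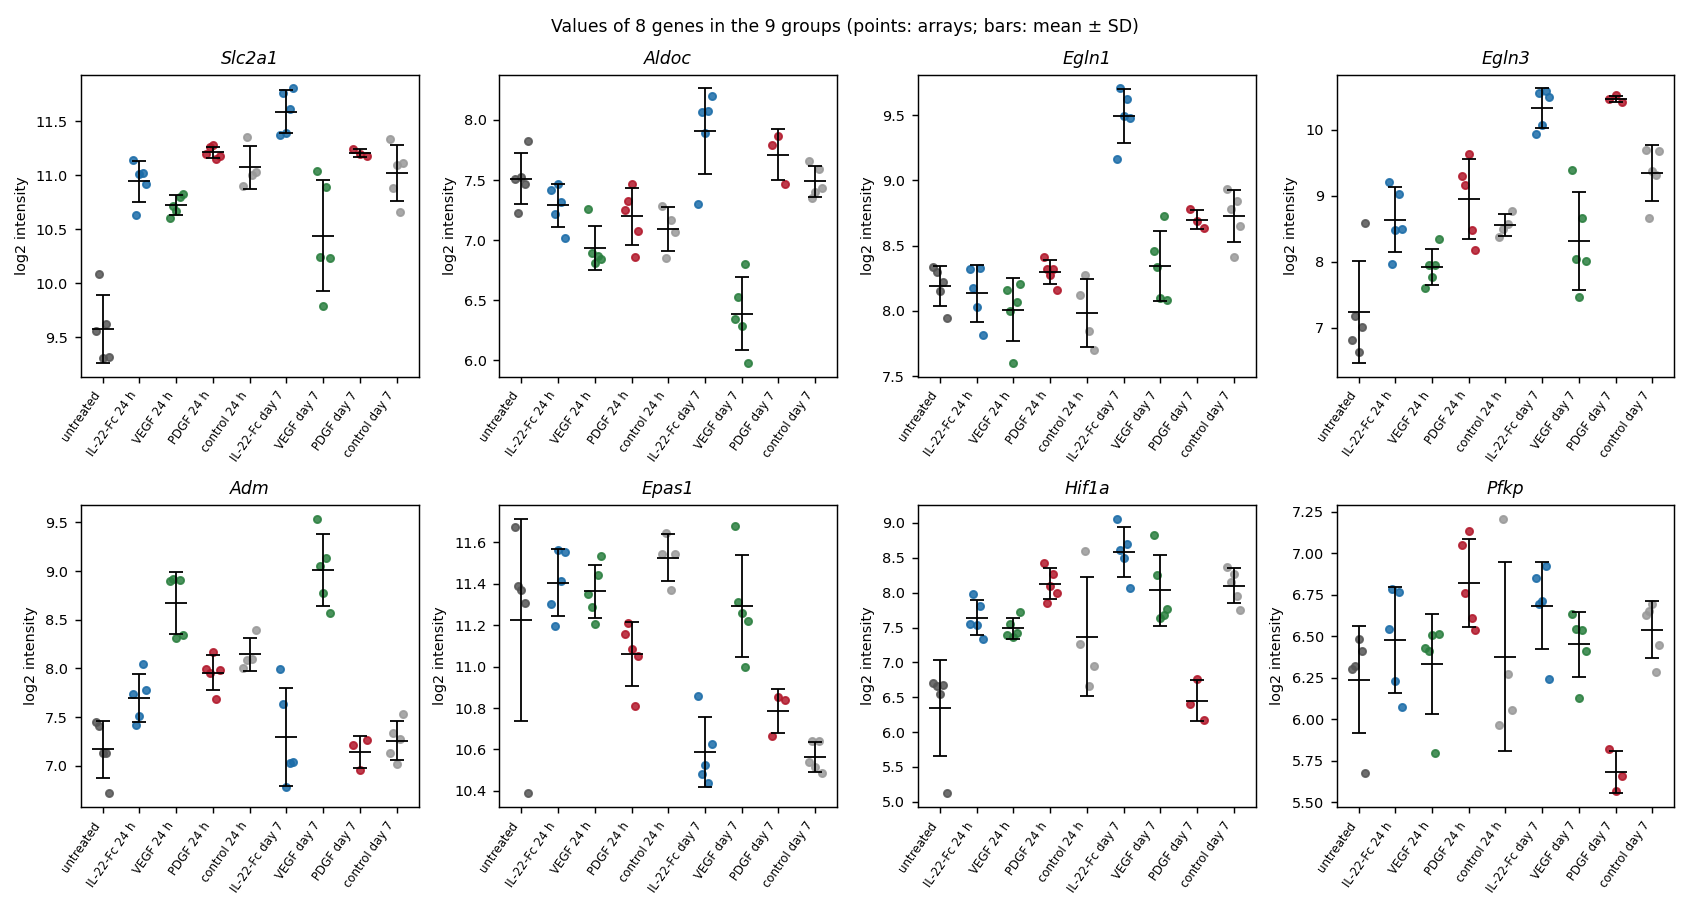
Log2 intensity of 8 members in untreated skin and in IL-22-Fc, VEGF, PDGF and control wounds at 24 h and on day 7; each point is 1 array and bars are the mean ± SD. On day 7 Egln1 and Egln3 lie above the controls with IL-22-Fc, Adm and Epas1 with VEGF, and Hif1a lies below the controls with PDGF.

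With VEGF on day 7, 3 members were higher and 9 lower, with 14.7% of all probe sets called (5.96% higher and 8.74% lower), and 27 of 37 members were below 0, while 48.5% of all probe sets were above it. The median member difference was −0.19, against −0.0069 over all probe sets. Adm read 9.54, 9.05, 8.78, 9.14 and 8.56 in VEGF wounds, against 7.13, 7.34, 7.02, 7.28 and 7.53 in control wounds, an increase of 1.75 (SE 0.20, 3.37-fold, adjusted p = 2.6e-06). Epas1 read 11.68, 11.31, 11.26, 10.999 and 11.22 with VEGF, against 10.54, 10.64, 10.51, 10.64 and 10.49 in control wounds (0.73, SE 0.10, adjusted p = 4.7e-05). These were the 2 members wholly above the controls, as were 4.19% of all probe sets, and 6 members lay wholly below them, as did 6.32%. P4ha1 was the third called higher (0.61, SE 0.15, adjusted p = 0.0084). In the same wounds 11 of 12 endothelial markers were higher and 1 lower, with a summed signal of 3155 to 4476 with VEGF, against 1330 to 1527 in control wounds. Of 14 macrophage markers 6 were higher and none lower, with a summed signal of 38596 to 47663 with VEGF, against 32742 to 36155 in control wounds. The part of these cell types in Adm and Epas1 was not tested.

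The 9 lower members with VEGF held 4 enzymes, GLUT1 and 2 oxygen sensors. Aldoc read 6.35, 6.53, 6.29, 6.80 and 5.98 with VEGF, against 7.66, 7.35, 7.40, 7.60 and 7.43 in control wounds (−1.10, SE 0.15, adjusted p = 3.6e-05). Car12 read 7.14, 7.39, 7.08, 7.72 and 7.33 with VEGF, against 8.69, 8.24, 8.11, 8.30 and 7.98 in control wounds (−0.93, SE 0.13, adjusted p = 3.3e-05). Both genes were lower in every VEGF array than in any control. Egln3 read 9.40, 8.05, 7.46, 8.66 and 8.01 with VEGF, against 9.70, 8.67, 9.37, 9.31 and 9.68 in control wounds; the first VEGF array lay among the controls and the other 4 below them (−1.03, SE 0.26, adjusted p = 0.0092). Slc2a1 read 11.04, 10.24, 9.79, 10.89 and 10.24 with VEGF, against 11.34, 10.88, 11.10, 10.66 and 11.11 in control wounds, with overlap (−0.58, SE 0.18, adjusted p = 0.034), and like Egln1 it lost its call in 6 of the 10 fits that left out 1 array. Higd1a (−0.66), a mitochondrial protein, Ldhb (−0.65), Aldoa (−0.39), Egln1 (−0.38) and Tpi1 (−0.35) completed the 9. Beside them 15 of 16 keratinocyte markers were lower and none higher, with a summed signal of 57443 to 77781 with VEGF, against 92311 to 106642 in control wounds; their part in the lower members was not tested.

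With PDGF on day 7, in 3 arrays, 10 members were higher and 4 lower, while 34.9% of all probe sets were called (18.9% higher and 16% lower), so that the share of called members (14 of 37) was near that of the array as a whole. Hif1a read 6.41, 6.76 and 6.18 in PDGF wounds, against 8.37, 8.15, 8.27, 7.96 and 7.75 in control wounds, a 0.318-fold level with a wide gap between the groups (−1.65, SE 0.24, adjusted p = 1.3e-05). Pfkp, the platelet-type phosphofructokinase, read 5.82, 5.57 and 5.66 with PDGF, against 6.63, 6.65, 6.69, 6.28 and 6.45 in control wounds (−0.86, SE 0.14, adjusted p = 5.6e-05). Higd1a (−0.81, adjusted p = 0.00011) and P4ha1 (−0.78, adjusted p = 0.0014) were the other lower members.

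The higher members with PDGF were led by Egln3, at 10.46, 10.52 and 10.42 in PDGF wounds, against 9.70, 8.67, 9.37, 9.31 and 9.68 in control wounds (1.12, SE 0.30, 2.18-fold, adjusted p = 0.0057). Slc2a3 read 5.56, 5.57 and 5.87 with PDGF, against 4.96, 4.93, 4.49, 4.67 and 4.76 in control wounds (0.90, SE 0.34, adjusted p = 0.044), and its call was lost in 7 of the 8 fits that left out 1 array. Car9 read 6.42, 6.05 and 6.01 with PDGF, against 5.41, 5.22, 5.14, 5.13 and 5.59 in control wounds (0.86, SE 0.19, adjusted p = 0.0013). In each of these genes all PDGF arrays were above all control arrays, as in 13 of 37 members, where 19.4% of all probe sets were so. Beside these values 7 of 14 macrophage markers were higher and 1 lower, with a summed signal of 44406 to 44956 in PDGF wounds, against 32742 to 36155 in control wounds. Of the other lists, 9 of 12 adipocyte markers were lower and none higher, 7 of 12 fibroblast markers lower and 2 higher, and 5 of 12 endothelial markers higher and 1 lower. Their part in the higher and lower members was not tested. Ero1l (0.73), Hk2 (0.63), Slc16a3 (0.60, a call also lost in 7 of those 8 fits), Pfkfb4 (0.60), Pfkl (0.54), Vhl (0.48), the recognition subunit that marks HIF for destruction, and Pgk1 (0.46) were also higher.

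The PDGF day 7 arrays also differed in control probe sets that read the 5′ end of transcripts. The 5′ probe set of Gapdh, itself a glycolytic enzyme, was 11.48 ± 0.19 in PDGF wounds, against 12.90 ± 0.06 in control wounds (SD, n = 3 and n = 5; −1.42), and that of Actb 12.66 ± 0.11 in PDGF wounds, against 13.29 ± 0.18 in control wounds (−0.63). The table held the 5′ control probe sets of these genes, and a low 5′ level and a lower expression cannot be told apart from them. Actb read 12.57 to 12.78 in PDGF, 12.99 to 13.43 in control and 13.51 to 13.64 in VEGF wounds, without overlap. An Actb covariate can therefore hardly be separated from these treatments. Calls lost or kept with it do not settle which changes were real. With the Actb level as a covariate, 4 of the 14 members kept their call in PDGF wounds, Pfkfb4 (0.65), Vhl (0.45), Car9 (1.28) and Higd1a (−1.17), whereas Hif1a (−0.94, adjusted p = 0.078) and Egln3 (1.16, adjusted p = 0.14) did not. The same covariate left 7 of the 12 VEGF calls on day 7, with Adm, Epas1, Aldoc and Car12 among them, and all 4 IL-22-Fc calls, to which it added Hk2 (0.59, adjusted p = 0.046).

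Side by side on day 7, IL-22-Fc and VEGF wounds differed in 25 of 37 members, with 21 higher in IL-22-Fc wounds and 4 lower, where 22.9% of all probe sets were called (12.1% higher and 10.8% lower). The median member difference was 0.42, against 0.0023 over all probe sets, and 10 of the 13 enzymes were higher in IL-22-Fc wounds and none lower. Leaving out each array in turn gave 20 to 28 called members. Of the enzymes, Pkm lost its call in 7 of these 10 fits, Pgam1 in 6 and Pgk1 in 1. Bnip3, Kdm3a and Pdk1 each lost theirs in 6. The groups were fully separate for 15 members; IL-22-Fc stood above VEGF in 13 and below it in 2 (9.12% and 7.9% of all probe sets). Egln3 differed most, at 9.94 to 10.58 with IL-22-Fc and 7.46 to 9.40 with VEGF (2.01, SE 0.26, 4.03-fold, adjusted p = 6.6e-06). Aldoc read 7.30, 8.06, 7.89, 8.08 and 8.20 with IL-22-Fc and 6.35, 6.53, 6.29, 6.80 and 5.98 with VEGF (1.52, SE 0.15, adjusted p = 2.9e-07), and Car12 (1.43), Slc2a1 (1.15) and Egln1 (1.15) followed. Slc16a1 read 11.44, 11.28, 11.25, 11.14 and 11.25 with IL-22-Fc, against 11.11, 10.28, 10.01, 10.03 and 9.996 with VEGF (0.99, SE 0.16, adjusted p = 8.1e-05). Lower with IL-22-Fc were Adm, at 6.78 to 7.99 with IL-22-Fc, against 8.56 to 9.54 with VEGF (−1.72, SE 0.20, adjusted p = 1.3e-06), P4ha2 (−0.76), Epas1 (−0.71) and P4ha1 (−0.62). In this comparison 11 of 16 keratinocyte markers were higher with IL-22-Fc and 4 lower, 1 of 12 endothelial markers was higher and 11 lower, and 6 of 12 neutrophil markers were higher. Of 14 macrophage markers 1 was higher and 8 lower, and of 12 fibroblast markers none was higher and 6 were lower; the part of these cell types in the member differences was not tested. The 5′ control probe sets also differed, Actb by −0.40 (adjusted p = 0.0083) and Gapdh by 0.26 (adjusted p = 0.044), and with the Actb covariate 18 members were called, where 13.8% of all probe sets were, 15 of the 25 among them, with Egln3 (2.03), Aldoc (1.24) and Adm (−1.44), whereas P4ha1 (−0.19, adjusted p = 0.55) and P4ha2 (−0.76, adjusted p = 0.094) missed the threshold.

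**Figure D4:**
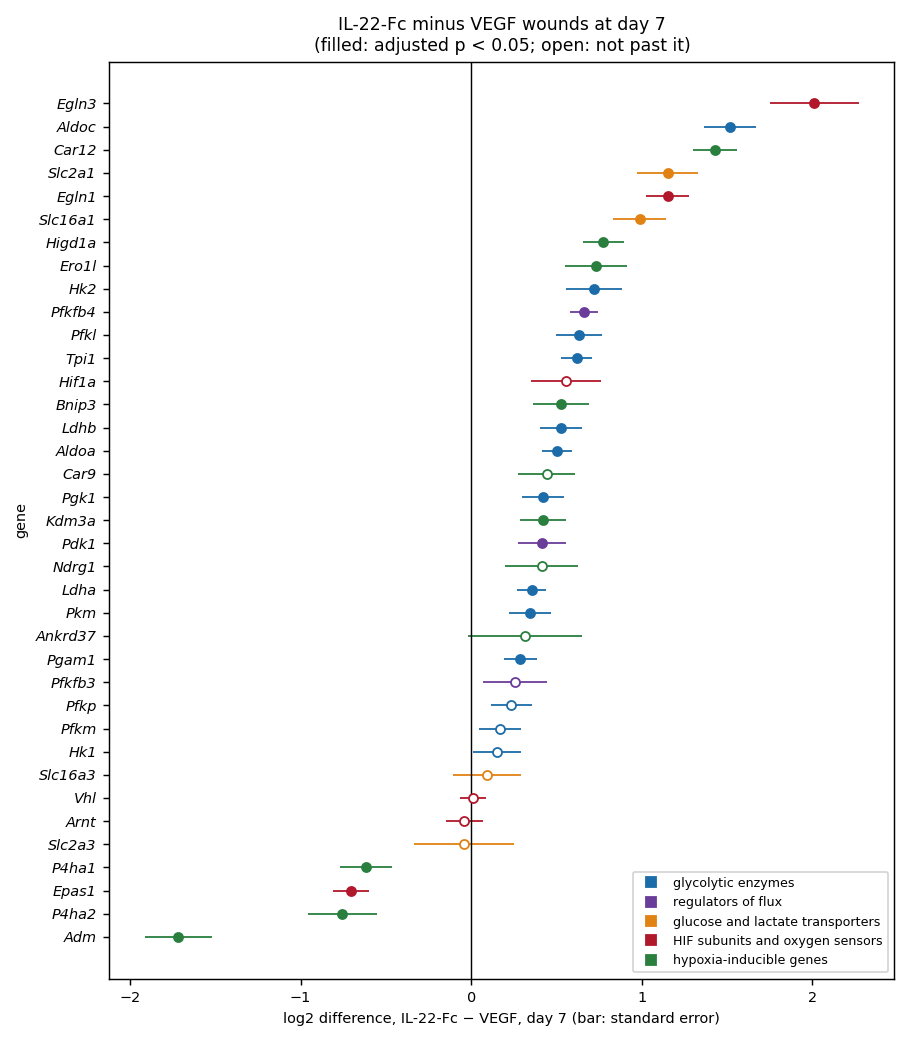
Log2 difference of each member between IL-22-Fc and VEGF wounds on day 7 with its standard error, ordered by size; filled points passed the threshold. Egln3 stands at 2.01 and Adm at −1.72, and 21 of the 25 called members are above 0.

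Against PDGF on day 7, 9 members were higher and 2 lower in IL-22-Fc wounds, led by Hif1a (2.14, SE 0.24, limma adjusted p = 4.4e-07) and Pfkp (1.00). The called share of members, 29.7%, was below the 38.1% of all probe sets (17% higher and 21.1% lower). Among the higher members, Ndrg1 lost its call in all 8 fits that left out 1 array and Arnt in 5 of them. Slc16a1 (0.91) and Egln1 (0.79) were also higher with IL-22-Fc, and Car9 (−0.61) and Vhl (−0.43) lower. VEGF wounds had 6 members higher and 17 lower than PDGF wounds, with 39.7% of all probe sets called (17% higher and 22.7% lower). Egln3 (−2.15), Aldoc (−1.32), Car12 (−1.19) and Car9 (−1.05) were lower with VEGF and Adm (1.87), Hif1a (1.58) and P4ha1 (1.39) higher, and 10 of 13 enzymes were lower and 1 higher (Pfkp, 0.77). With the Actb covariate 2 of these 23 calls were left, Pfkfb4 (−0.86) and Car9 (−1.67), and 7 of the 11 between IL-22-Fc and PDGF, with Hif1a (1.53), Egln1 (0.98) and Slc16a1 (0.89) among them. Beside these values, 7 of 14 macrophage markers were lower with IL-22-Fc than with PDGF and 1 higher, and 6 of 12 fibroblast markers higher and 3 lower. With VEGF, 11 of 12 endothelial markers were higher than with PDGF and 1 lower, 7 of 12 fibroblast markers higher and 1 lower, and 10 of 16 keratinocyte markers lower and 3 higher; the part of these cell types was not tested.

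Whether an effect itself changed between the times was tested as the day 7 effect minus the 24 h effect over the 37 wound arrays. For IL-22-Fc 1 member passed, where 1.69% of all probe sets did (0.759% upward): Pfkfb4, by 0.60 (SE 0.14, adjusted p = 0.016). For VEGF 2 members passed upward and 2 downward, with 8.85% of all probe sets (2.57% upward and 6.28% downward). The share of members, 10.8%, was near that of all probe sets. Adm moved by 1.22 (SE 0.26, adjusted p = 0.0016), with VEGF arrays, beside the day 7 values above, of 8.89, 8.92, 8.31, 8.90 and 8.34 at 24 h, against 8.00, 8.09, 8.10 and 8.39 in the control wounds of that time, and Epas1 moved by 0.89 (SE 0.14, adjusted p = 4.6e-05). Aldoc (−0.94) and Ldhb (−0.73) moved downward.

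For PDGF 12 members passed, 7 upward and 5 downward, with 32.3% of all probe sets (18.1% upward and 14.3% downward). The share of members, 32.4%, was thus that of the array as a whole. Hif1a had the largest shift, −2.41 (SE 0.37, adjusted p = 4.4e-06). On day 7 all PDGF arrays were below all controls, whereas at 24 h Hif1a read 8.43, 7.86, 8.09, 8.26 and 8.00 with PDGF, against 7.27, 8.60, 6.66 and 6.95 in control wounds, and was not called (0.76, adjusted p = 0.14). Without control replicate 2 of 24 h, the array at 8.60, all PDGF arrays lay above the other controls, Hif1a was called higher with PDGF at 24 h (1.17, adjusted p = 0.00026) and its shift was −2.82. Pfkp (−1.30), P4ha1 (−1.23), Higd1a (−0.81) and the HIF partner Arnt (−0.48) also moved down. The upward shifts were those of Pfkm (0.87), Ldhb (0.81), Vhl (0.81), Car9 (0.80, lost in 10 of the 17 fits that left out 1 array), Hk2 (0.73), Pfkfb4 (0.73) and Epas1 (0.69), of which Pfkm, Ldhb and Epas1 were the members lowered at 24 h. The control probe sets of the PDGF day 7 arrays differed in the same comparison, as given above. Their own shifts were −1.97 (5′ Gapdh, SE 0.21) and −0.78 (5′ Actb, SE 0.17). That is the direction of Hif1a and the other downward members, and opposite to the 7 upward ones. At 24 h, 5′ Gapdh was 0.55 higher with PDGF than in control wounds, but not called (limma adjusted p = 0.11). The part of these probe sets in the member shifts, and in the Hif1a values at 24 h, was not tested.

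**Figure D5:**
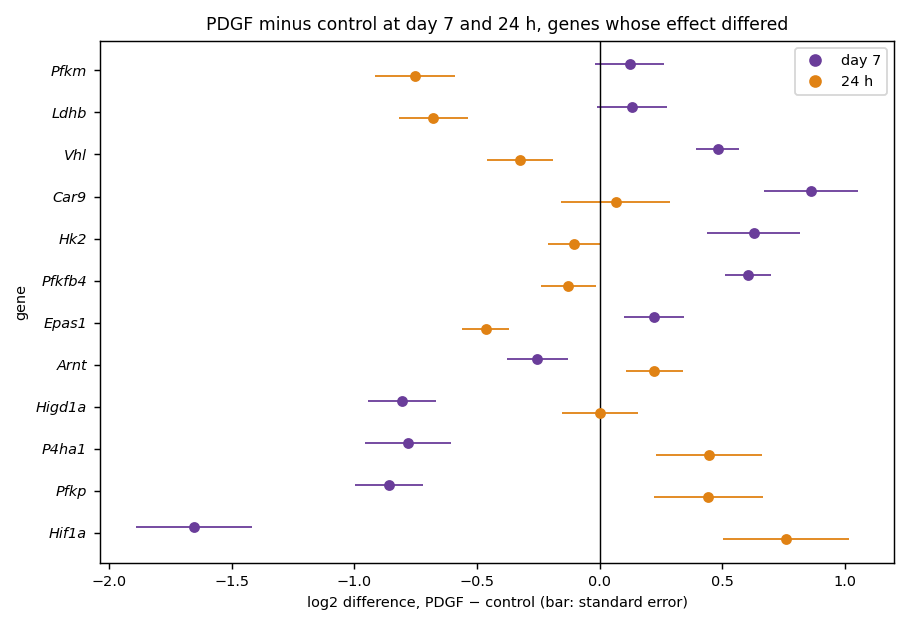
Log2 difference between PDGF and control wounds on day 7 and at 24 h, with its standard error, of the 12 members whose effect differed between the times. Hif1a, Pfkp and P4ha1 lie below 0 on day 7 and above 0 at 24 h.

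Other genes of the same pathways were read from further lists. For these counts, 39.5% of all probe sets were called in control wounds at 24 h against untreated skin, and 30.1% between day 7 and 24 h. Against the day 7 control the shares were 5.45% with IL-22-Fc, 14.7% with VEGF and 34.9% with PDGF. Of 31 other glycolysis and pyruvate genes, 7 were higher and 13 lower in control wounds at 24 h than in untreated skin. Slc2a6 (2.26), a lysosomal hexose transporter, Hk3 (2.07), the hexokinase of myeloid cells, and the neuronal enolase Eno2 (1.21) rose, and the muscle enolase Eno3 (−1.65), the muscle mutase Pgam2 (−1.39) and the insulin-regulated transporter Slc2a4 (−1.37) fell. On day 7 none was higher and 4 were lower with VEGF than with the control, among them Pdk4 (−0.99), and 1 was lower with IL-22-Fc (Slc2a12, −1.08), whereas with PDGF 7 were higher and 11 lower. The VEGF and IL-22-Fc counts were below the shares of all probe sets. The 11 lower with PDGF included Gapdh, read here by its 5′ control probe set. Of 6 pentose phosphate genes, 4 were higher at 24 h than in untreated skin and 5 were lower on day 7 than at 24 h, and 4 were higher with PDGF on day 7, among them Rpia (0.64) and Taldo1 (0.61).

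Of 37 other hypoxia-inducible and oxygen-sensing genes, 11 were higher and 9 lower in control wounds at 24 h, with Hmox1 (2.00), heme oxygenase, and Bhlhe40 (1.31), a transcriptional repressor, among the higher and Vldlr (−1.98) and Selenbp1 (−1.38) among the lower. On day 7 the collagen-modifying enzymes Plod2 (2.94) and P4ha3 (2.82) stood highest over untreated skin, beside P4ha1 and P4ha2 among the members. With IL-22-Fc on day 7, 2 of the list were higher, the transferrin receptor Tfrc (0.86) and the mitochondrial gene Fam162a (0.62), and Insig2 was lower (−0.35). With VEGF 6 were higher and 5 lower, with Stc2 (0.69) and Lox (0.63), a collagen crosslinker, higher and Fam162a (−0.54) and Bhlhe40 (−0.54) lower. With PDGF 14 were higher and 7 lower, with Tfrc (1.77) higher and P4ha3 (−1.88) and Lox (−1.74) lower; 7 of 12 fibroblast markers were lower in the same wounds, with a summed signal of 21784 to 36286 with PDGF, against 46364 to 67300 in control wounds, and their part was not tested. Of 7 gluconeogenesis genes, 1 was higher and 3 lower in control wounds at 24 h than in untreated skin, and on day 7 IL-22-Fc wounds had 1 lower than control wounds. VEGF wounds had 1 higher and 3 lower, and PDGF wounds 1 higher and 2 lower. Pck1, the enzyme that opens the path from oxaloacetate and also feeds glycerol synthesis in fat, was lower in control wounds at 24 h than in untreated skin (−2.38) and lower with VEGF than with the control on day 7 (−1.32), where 10 of 12 adipocyte markers at 24 h and 8 of 12 with VEGF were lower; their part was not tested. Pck1 was also lower with PDGF at 24 h (−1.44, adjusted p = 0.043), when 2 of 12 adipocyte markers were. Pck2, the mitochondrial form of the enzyme, was higher in control wounds on day 7 than in untreated skin (0.63) and higher on day 7 with VEGF (0.53) and PDGF (1.09) than with the control.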

How the data were processed

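The values were probe-set intensities of Affymetrix mouse arrays (Mouse430V2), 42 arrays in 1 table, which the authors had summarised and normalized by RMA and deposited on a linear scale (3.85 to 23537, median 50.8). By the study's methods, probe sets were reduced to 1 per gene, keeping the one of highest variance. Members and the shares over all probe sets may therefore rest on probe sets chosen for their variation. Of 20672 probe sets, 17928 had 1 gene symbol, 79 several and 2665 none in the platform annotation, and 36 members were matched by symbol and 1, Ero1l, by a synonym. Groups came from the labels; replicate numbers only name arrays. Log2 values were fitted with limma 3.58.1 (lmFit, eBayes; R 4.3.3): 42 arrays for control wounds and untreated skin, the 19 arrays of 24 h and the 18 of day 7 for treatments, and the 37 wound arrays for the day 7 effect minus the 24 h effect. Adjusted p is Benjamini-Hochberg over all probe sets. RMA pulls arrays to 1 distribution and leaves no read depth, so precision rests on the number of arrays. The fits were first tested on simulated data. Members given array by array were, per comparison, the 2 called higher and the 2 called lower with the largest difference, and others were named after their values were seen. The members and lists were chosen with earlier results of these data known. Tried alternatives were a 1.5-fold threshold, quantile or median scaling, leaving out dim probe sets (the lowest 25%), array weights, trend and robust eBayes, other arrays in the fit, an Actb covariate and leaving out each array. Promoter windows came from RefSeq tables.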

Additional observations from a re-analysis of the deposited data

Results flagged for a closer look

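In 9 of 112 groups of 4 or 5 arrays tested for the key members, 1 array stood apart from its group, where chance alone gives about 1 in 20. The same arrays served for every key member, so these tests are not independent and 1 array can raise the count. Untreated replicate 5 made up 5 of the 9: Egln3 was 8.58, with the other 4 arrays at 6.63 to 7.18, Hif1a was 5.12 (others 6.55 to 6.71), Ndrg1 was 7.84 (8.97 to 9.31), Epas1 was 10.39 (11.31 to 11.68) and Pfkp was 5.68 (6.30 to 6.48). In control wounds at 24 h, Slc2a3 was 6.61 in replicate 2 (others 6.41 to 6.42) and Ankrd37 was 7.27 in replicate 3 (6.39 to 6.48). In VEGF wounds at 24 h, Aldoc was 7.26 in replicate 1 (6.81 to 6.90) and Pfkp was 5.80 in replicate 4 (6.41 to 6.52).

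The effect of a treatment differed between day 7 and 24 h, by the limma test of that difference, in 9 of the key values. With VEGF the difference was −0.94 for Aldoc (adjusted p = 0.0024), −0.73 for Ldhb (adjusted p = 0.011), 0.89 for Epas1 (adjusted p = 4.6e-05) and 1.22 for Adm (adjusted p = 0.0016). With PDGF it was 0.87 for Pfkm (adjusted p = 0.0024), −1.30 for Pfkp (adjusted p = 0.00039), 0.81 for Ldhb (adjusted p = 0.0023), −2.41 for Hif1a (adjusted p = 4.4e-06) and 0.69 for Epas1 (adjusted p = 0.00064).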

How the results depend on the processing

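Of the counts of called members recomputed under another setting, 259 stayed within 1.5 times the count reported and 20 did not. Of the recomputed values of key members, 379 kept direction and call, 27 kept direction but missed the threshold and 0 reversed. With a further threshold of 1.5-fold, 11 members were called on day 7 against 24 h in control wounds (13.2% of all probe sets), 2 with IL-22-Fc (2.3%), 16 between IL-22-Fc and VEGF (8.48%) and 15 between VEGF and PDGF on day 7 (20%). With array weights, 5 were called with PDGF at 24 h (7.43%), 9 with IL-22-Fc on day 7 (6.86%) and 7 for the VEGF effect between the times (12.3%). With the Actb covariate on day 7, 7 were called with VEGF (8.08%), 4 with PDGF (16.6%), 7 between IL-22-Fc and PDGF (21.9%) and 2 between VEGF and PDGF (8.7%); the cause was not tested. Leaving out each array in turn gave 12 to 19 called members for control wounds between the times, 0 to 6 for PDGF at 24 h, 2 to 5 for IL-22-Fc on day 7 and 1 to 2 for the change of the IL-22-Fc difference with time, with 2 when control replicate 4 of 24 h was left out. Calls of single members lost in most of those fits included Pfkfb3 (5 of 9) and Ero1l (8 of 9) between control wounds at 24 h and untreated skin, and Kdm3a (5 of 9) and Hif1a (7 of 9) between day 7 and 24 h. The number of arrays, 3 for PDGF on day 7 and 4 for the 24 h control, limits the precision of these comparisons. No paired analysis was possible because the replicate numbers follow sample order and pair no arrays.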
